A study of Homo sapiens with 24 samples.

Results

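The ribosomal RNA features transcribed by RNA polymerase I (Pol I) were examined in HEK293, an established cell line of human embryonic kidney origin, in which a nuclear lamin was overexpressed. Members were all features that the deposited small RNA table types as rRNA, outside the mitochondrial chromosome and without the 5S names, which leaves the 45S, 18S, 28S and 5.8S features, their copies, and every other rRNA name. This gave 227 of 175946 features, and the same 227 were followed in the ATAC-seq table. Cells of wild type genotype overexpressed LMNA (lamin A/C), LMNB1 (lamin B1) or LMNB2 (lamin B2), which are proteins of the nuclear lamina, or eGFP, a fluorescent protein that served as control and is called GFP here. Each of the 4 groups had 3 small RNA and 3 ATAC libraries, 24 in all. The sources used here do not give the vector, the promoter or the duration of overexpression. The labels do not say that replicates came from separate cultures, so p-values can cover only the variation among these libraries.

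Pol I transcribes the ribosomal DNA (rDNA) repeats in the nucleolus into a 45S precursor. External and internal transcribed spacers are removed from it, and the 18S RNA of the small ribosomal subunit and the 5.8S and 28S RNAs of the large subunit remain. Small nucleolar RNAs such as U3, and the RNA of RNase MRP, act in these cuts. The 5S RNA is made elsewhere by RNA polymerase III. In libraries enriched for small RNA, counts over long ribosomal RNAs come from fragments, and abundance and fragmentation cannot be told apart in them.

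By name, 5 members were 45S, 38 were 18S or small subunit, 101 were 28S or large subunit, 14 were 5.8S and 69 had other names. Of these, 15 carried the names of rDNA genes and lay on chromosome 21, called rDNA genes below. One of them, the 5.8S feature at chr21:8256756-8256958, lies in a partial unit and overlaps RNA5-8SP10, a pseudogene in RefSeq. Another 2 were the small and large subunit copies of that partial unit. A further 87 were copies elsewhere, called dispersed copies below. Names of bacterial ribosomal RNA models were carried by 51 members and of archaeal ones by 3. No bacterial- or archaeal-model member overlapped a RefSeq gene or pseudogene of nuclear ribosomal RNA, against 24 of the 87 dispersed copies. A feature with such a bacterial name on the mitochondrial chromosome lies inside the ribosomal RNA gene MT-RNR2. Whether the bacterial-model members derive from Pol I transcripts was not tested. The last 69 carried gene identifiers of other species, and for these the label is contradicted: 66 overlapped a 5S gene or pseudogene in RefSeq (GRCh38.p14) and 1 overlapped the 5.8S pseudogene RNA5-8SP4. A filter on low counts left 131 members in the small RNA test and 177 in the ATAC test. Of the 131, 15 were rDNA genes, 2 the partial unit, 62 dispersed copies, 28 bacterial-model and 24 other-species names. In small RNA, 7 members had a count of 0 in all 12 libraries.

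The first rDNA unit lies at chr21:8205963-8219327 (GRCh38), the interval of RNA45SN2, which like the others extends 25 bp beyond the gene on each side. Within it are the 18S gene named RNA18SN3 (chr21:8209606-8211524), a 5.8S gene named RNA5-8SN1;RNA5-8SN4 (chr21:8212547-8212749) and the 28S gene RNA28SN2 (chr21:8213865-8218965). RNA45SN3 (chr21:8389010-8402368) and RNA45SN1 (chr21:8433197-8446597) are the other complete units. Both remaining 45S intervals, also named RNA45SN2 (chr21:8250172-8402368 and chr21:8389010-8446597), span more than 1 unit or partial unit. The units are near-identical, and the 3 complete ones had almost the same mean level over all libraries: 8010, 7978 and 7997 CPM (counts per 1000000 counts of the library, scaled by edgeR's TMM factors). Levels of copies cannot be separated, the members are not independent, and the 3 units are read here as 1 measurement. Counts of the opposite strand cannot be told apart either. FP236383.2, a minus-strand lncRNA interval inside the 18S gene that covers 50.7% of its length, held 45% to 55.5% of the 18S count.

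Annotated microRNA hairpins in the 5′ spacer show how closely such copies match. The MIR10396B hairpin starts 3102 bases after the start of RNA45SN1 and ends 502 bases before its 18S gene (chr21:8436324-8436374, plus strand). MIR10396A ends 507 bases before the start, without the 25 bp extension, of the dispersed 18S copy of chr21:8988147-8988842 (chr21:8987617-8987665, plus strand). They share a stretch of 48 bases, which starts at base 1 of MIR10396A and base 2 of MIR10396B. The RefSeq sequences (GRCh38.p14), with the mature arms in capitals, are
MIR10396B: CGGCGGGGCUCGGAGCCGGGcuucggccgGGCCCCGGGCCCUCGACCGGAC
MIR10396A: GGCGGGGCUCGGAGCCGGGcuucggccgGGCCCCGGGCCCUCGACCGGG

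The mature RNAs of 4 spacer or flanking hairpins, with the seed (bases 2 to 8) in capitals, are shown because their intervals are compared with the ribosomal RNAs below. miR-10396b-3p and miR-10396a-3p share 1 seed. miR-3648 comes from the 5′ spacer, and miR-6724-5p from a hairpin 601 bases before the start of RNA45SN1.
hsa-miR-10396b-3p: gGCCCCGGgcccucgaccggac
hsa-miR-10396a-3p: gGCCCCGGgcccucgaccggg
hsa-miR-3648: aGCCGCGGggaucgccgaggg
hsa-miR-6724-5p: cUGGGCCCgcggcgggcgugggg

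Summed feature counts were 132507051 to 195074742 per small RNA library and 156043245 to 290158229 per ATAC library, and a read over overlapping features enters these sums more than once. The GFP small RNA libraries were the most unlike each other, with TMM factors of 0.63 in replicate 1, 0.90 in replicate 2 and 1.31 in replicate 3, against 0.88 to 1.16 in the lamin libraries. The mitochondrial chromosome took the smallest part of the ATAC counts in LMNB2 (24.5% to 30.7%), then LMNB1 (32.8% to 34.1%), LMNA (39.4% to 44.1%) and GFP (39.9% to 47.5%). In ATAC each lamin label matched its locus. The interval over LMNA held 3743 to 5332 CPM in the LMNA libraries against 5.50 to 16.5 in the others. That over LMNB1 held 8704 to 12079 against 15.0 to 43.5, and that over LMNB2 36030 to 45471 against 71.1 to 176. In small RNA the LMNB1 interval had means of 18.3 CPM in LMNB1, 0.413 in LMNB2 and 0.106 in GFP. The LMNB2 interval had means of 364 CPM in LMNB2 and 1.55 in GFP. The LMNA interval had too few small RNA counts to check its label, with means of 0.0189 CPM in LMNA and 0.0236 in GFP.

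In small RNA the 45S interval of the first unit was highest in every LMNB2 library. It held 6658, 7185 and 6969 CPM in GFP, 8155, 7740 and 7759 with LMNA, 7215, 7951 and 7399 with LMNB1, and 9412, 9708 and 9974 with LMNB2. No LMNB2 library overlapped any of the other 9. The means ± SD were 6938 ± 265 in GFP and 9698 ± 281 in LMNB2 (n = 3 each), 1.40-fold apart. By edgeR's quasi-likelihood test over all 33893 tested features, the log2 fold change was 0.48 ± 0.25 (SE). Its Benjamini-Hochberg adjusted p was 0.283, so the call was not made. The SE and p rest on a spread that edgeR estimates partly over all tested features. They therefore do not measure the spread of this interval's libraries alone. LMNA and LMNB1 were 0.18 ± 0.25 and 0.12 ± 0.25 from GFP (adjusted p 0.975 and 0.949).

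The mature RNAs of the unit were also highest in the 3 LMNB2 libraries. RNA18SN3, the RNA of the small subunit, was at 1095, 1128 and 983 CPM in GFP and 1516, 1598 and 1612 in LMNB2, a log2 fold change of 0.56 ± 0.23 (adjusted p 0.181). Its LMNA libraries (1088, 1069 and 1159) and LMNB1 libraries (1055, 1107 and 1060) overlapped GFP. RNA28SN2, the large subunit RNA that holds the peptidyl transferase centre, was at 4330, 5020 and 5182 CPM in GFP and 6674, 6780 and 7043 in LMNB2 (0.50 ± 0.25, adjusted p 0.269). LMNA lay between them, at 5945, 5585 and 5563 CPM, above each GFP library, whereas LMNB1 (5172, 5686 and 5400) overlapped GFP. The 5.8S gene, whose RNA pairs with 28S, was at 961, 795 and 663 CPM in GFP and 970, 1087 and 1059 in LMNB2 (0.36 ± 0.24, adjusted p 0.408). It was at 835, 860 and 812 CPM in LMNA and 758, 893 and 754 in LMNB1, all within the GFP range, and GFP replicate 1 came close to the lowest LMNB2 library.

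**Figure D1:**
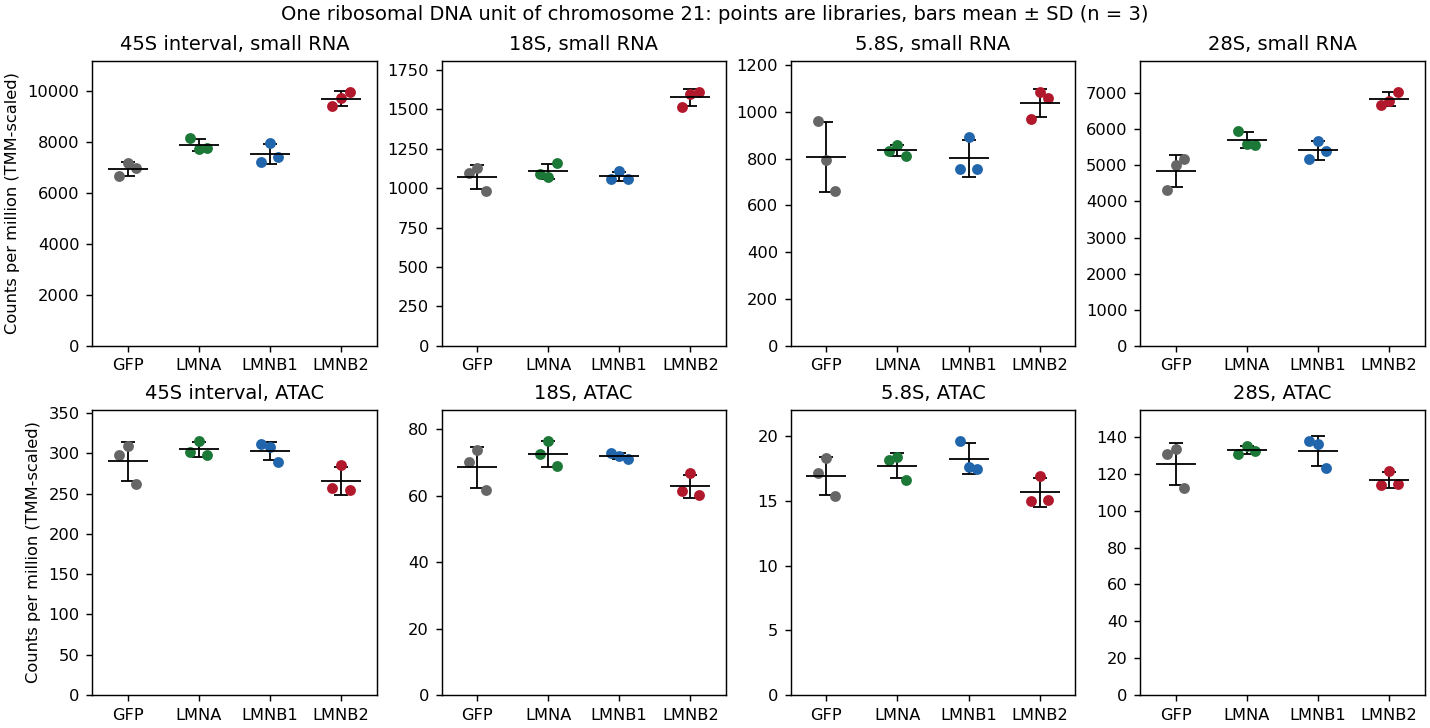
CPM of the 45S interval, 18S, 5.8S and 28S of the first rDNA unit (vertical axes, from 0) by group (horizontal axes), with small RNA in the upper panels and ATAC in the lower ones; points are libraries and bars mean ± SD. The small RNA points of LMNB2 lie above all others in the 4 panels, with the 45S interval at 9412 to 9974 against 6658 to 8155, and the ATAC points overlap.

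All 15 rDNA genes had their 3 LMNB2 libraries above the 3 GFP libraries and above the 9 libraries of the other groups. Over all tested members, 35 of 131 had LMNB2 above GFP and 2 below, where 12.1% and 10.2% of all tested features were. Against all 9 other libraries, 30 members lay above and 1 below, where 6.3% and 2.98% of all features did. LMNA lay above GFP for 12 of 131 members (background 4.16%), among them 8 rDNA genes, all 5 of the 45S and all 3 of the 28S class, and below GFP for 0 (background 5.34%). LMNB1 lay above GFP for 6 (background 4.76%) and below for 3 (background 5.29%).

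A single member passed the test in LMNB2 against GFP, where 2.66% of all tested features did: 1.91% higher and 0.752% lower. It was the bacterial-model feature LSU_rRNA_bacteria_rRNA_URS00009A7234 (chr9:33657824-33659231), at 2.01, 2.61 and 2.21 CPM in GFP and 3.64, 3.63 and 3.78 in LMNB2. Its log2 fold change was 0.69 ± 0.18 (adjusted p 0.048), and the call was lost without any 1 library other than GFP replicate 3 (adjusted p 0.0512 to 0.167). No member passed in LMNA (background 0%) or LMNB1 (background 0.0384%), or in the joint test of the lamins against each other (background 1.93%). At an unadjusted p under 0.05 the counts were 1, 2 and 23 of 131 for LMNA, LMNB1 and LMNB2, beside 5.46%, 5.51% and 19.9% of all features, and 27 in the joint test (background 16%). The median log2 fold change of the tested members was 0.05, -0.07 and 0.26, and that of all tested features -0.05, -0.05 and -0.04.

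Whether the rDNA genes passed depended on the test, on the contrast and on the libraries and features fitted. DESeq2's Wald test called 23 members in LMNB2 against GFP, all higher and 11 of them rDNA genes (adjusted p 4.42e-07 to 0.00142 for these), where it called 3.52% of all features. It called 0.207% of features in LMNA and 0.062% in LMNB1, and no member. When edgeR was fitted to the 9 lamin libraries alone, the joint test called 56 of 126 members and all 15 rDNA genes (adjusted p 9.78e-05 to 0.0141), where it called 12% of all features. Without GFP replicate 3 the fit called 35 of 132 members in LMNB2 (background 5.82%), and none of these was an rDNA gene. With lncRNA features left out, edgeR called 1 rDNA gene in LMNB2 against GFP (adjusted p 0.0498). The share of all features called under that setting is given below. Scaling by total counts in place of TMM raised the log2 fold changes of the first unit to between 0.65 and 0.80 without a call, and the median of all features from -0.04 to 0.19.

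**Figure D2:**
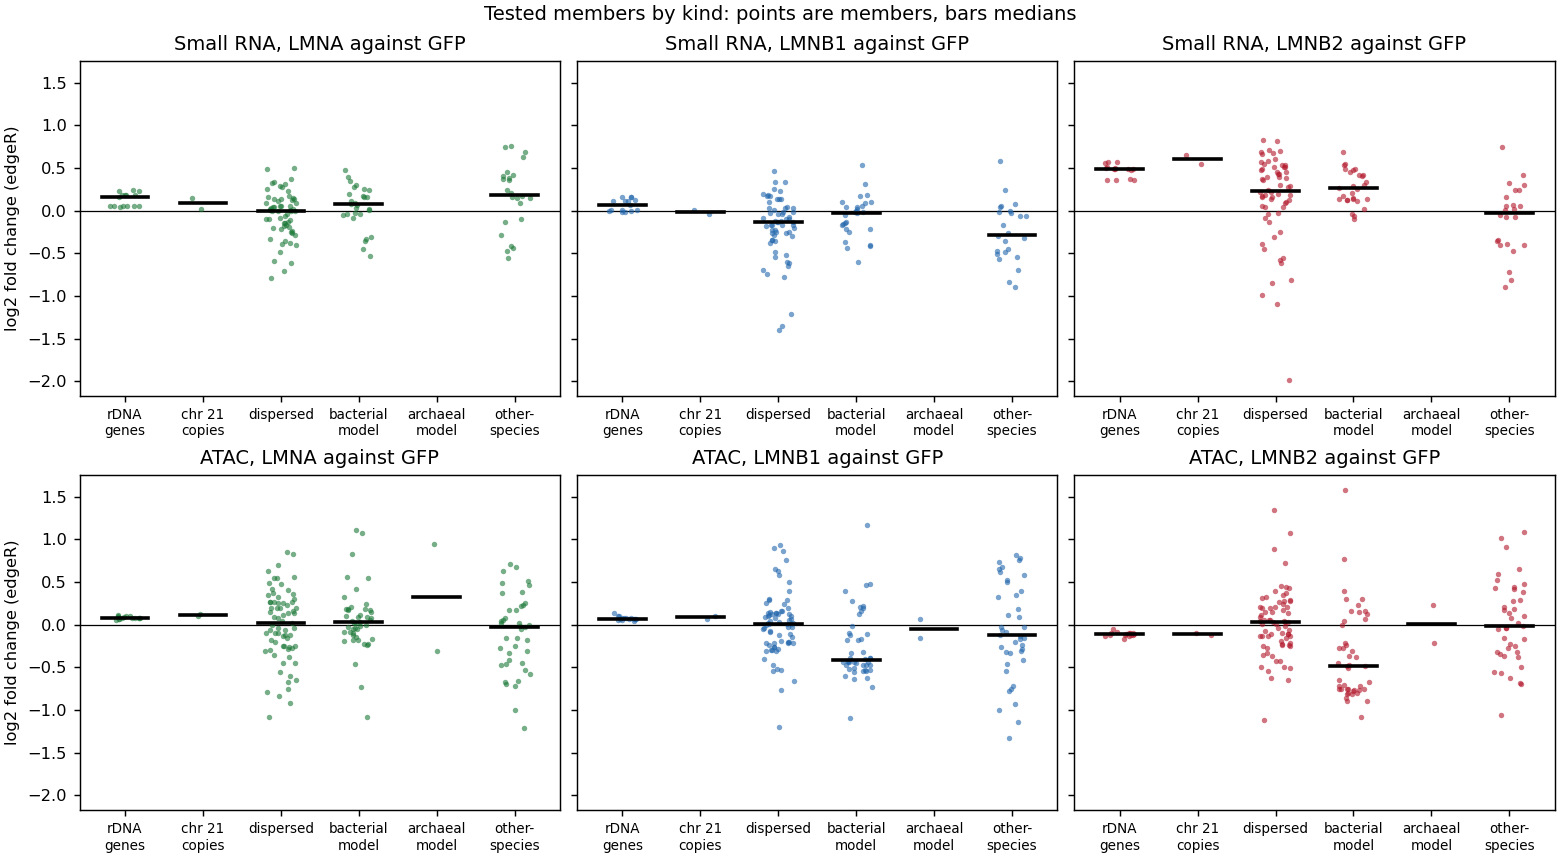
Log2 fold change against GFP from edgeR (vertical axes) for tested members of each kind (horizontal axes), with small RNA in the upper panels, ATAC in the lower panels and 1 panel per lamin; points are members and bars medians. In small RNA, LMNB2, the rDNA genes lie between 0.36 and 0.57; in ATAC, the bacterial-model medians are -0.42 in LMNB1 and -0.48 in LMNB2, and no archaeal-model member was tested in small RNA.

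As a share of library counts, the members together took 4.42%, 6.73% and 9.54% in the GFP libraries, 8.54%, 7.68% and 7.07% with LMNA, 7.87%, 8.68% and 7.85% with LMNB1, and 11.5%, 11.2% and 11.1% with LMNB2. LMNB2 was above every other library, while the GFP libraries spanned more than the whole LMNA and LMNB1 range. The mean was 11.3% in LMNB2 and 6.90% in GFP, a ratio of 1.64. In the exact two-sided permutation test this gave p = 0.1, the smallest that 3 against 3 libraries allow, and 0.36 after Benjamini-Hochberg adjustment over 18 comparisons. The 18S, 28S, 45S and 5.8S classes each had LMNB2 wholly above GFP, with ratios of 1.72, 1.66, 1.63 and 1.57 (exact permutation p = 0.1 and adjusted 0.36 each). The other-species names did not, with a ratio of 0.94. Shares of RNAs that Pol I does not make were compared too, without adjustment. The mitochondrial ribosomal RNA features also lay wholly above GFP in LMNB2, with a ratio of 1.28 (exact permutation p = 0.1). The 5S features had a ratio of 1.26 and overlapped GFP (exact permutation p = 0.4). Shares carry no TMM scaling, and the TMM factors of GFP varied with them: replicate 1 had the lowest share and factor, and replicate 3 the highest.

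Along the first unit the small RNA counts were far from even. Per kb of interval, the mean over 12 libraries was 4289 CPM in 5.8S, 1117 in 28S, 628 in 18S and 38.4 in the spacers, the part of the 45S interval outside these genes. Spacer counts were the 45S count minus the counts of 18S, 5.8S and 28S, so a read counted at a gene edge is not in the spacers. As 5.8S is short, its value per kb includes relatively more of the padding. Spacers made up 4.10%, 3.36% and 2.03% of the unit's counts in GFP and 2.68%, 2.51% and 2.61% in LMNB2, and the groups overlapped (exact permutation p = 0.4). On the CPM scale the spacers were at 273, 242 and 141 in GFP, and at 252, 243 and 260 in LMNB2 (exact permutation p = 0.7). The spacer level therefore overlapped between the groups whose mature RNA levels did not.

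Ratios within the unit separated LMNB2 from the other lamins more than from GFP. The ratio of 28S to 18S counts was 3.95, 4.45 and 5.27 in GFP and 4.40, 4.24 and 4.37 in LMNB2, so that GFP lay on both sides of LMNB2. It was 5.46, 5.22 and 4.80 in LMNA and 4.90, 5.14 and 5.10 in LMNB1, all above LMNB2. The 5.8S to 18S ratio was 0.878, 0.705 and 0.674 in GFP and 0.640, 0.680 and 0.657 in LMNB2 (exact permutation p = 0.2). GFP spread the most in both ratios, and its replicates 1 and 3 were the extremes of each.

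**Figure D3:**
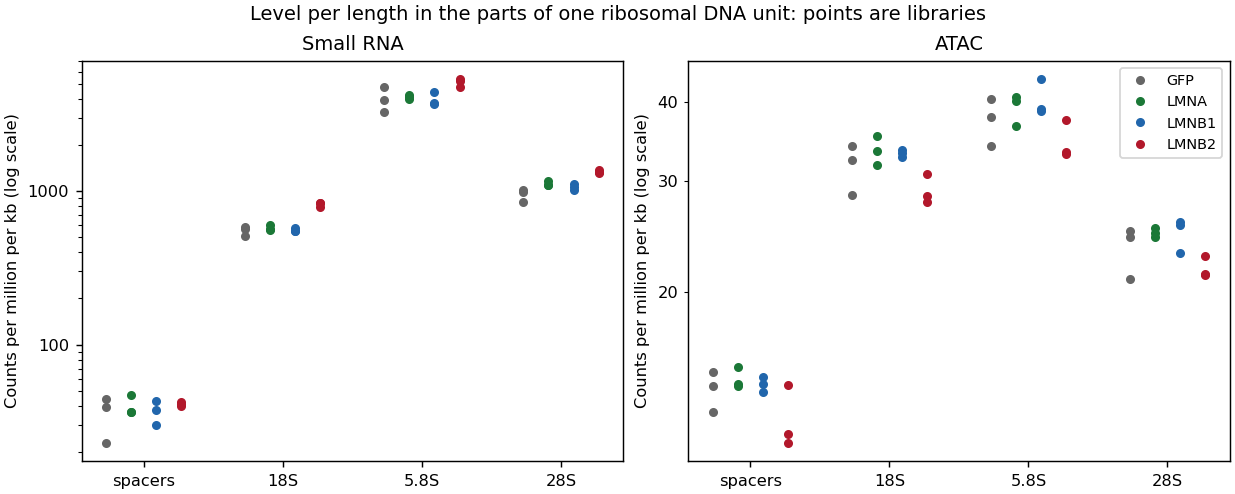
CPM per kb (log axes) in the spacers, 18S, 5.8S and 28S of the first rDNA unit (horizontal axes), for small RNA and ATAC; points are libraries, coloured by group. Small RNA rises from 38.4 in the spacers to 4289 in 5.8S on average, while the ATAC means run only from 13.9 to 37.9.

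In the partial unit of chromosome 21 the fold change of the large subunit copy exceeded those of the 28S genes (0.49 to 0.50), and that of the small subunit copy lay just below those of the 18S genes (0.56 to 0.57). The large subunit copy LSU_rRNA_eukarya_rRNA_URS0000C3BD89 (chr21:8258109-8260955) was at 1958 ± 46.5 CPM in GFP and 3080 ± 131 in LMNB2 (SD, n = 3), with a log2 fold change of 0.65 ± 0.23 (adjusted p 0.135). The small subunit copy SSU_rRNA_eukarya_rRNA_URS0000ABD7D5 (chr21:8253817-8255729) had 0.55 ± 0.23 (adjusted p 0.188). LMNA and LMNB1 were within 0.15 of GFP at both. Whether the partial and complete units differ in their response was not tested.

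Of the 62 dispersed copies tested, 46 had a log2 fold change above 0 in LMNB2, with a median of 0.23 and a range of -1.99 to 0.83. None passed the test, 11 lay wholly above GFP and 1 below, where 12.1% and 10.2% of all tested features did. The copies with the highest levels were chosen after their values were seen. LSU_rRNA_eukarya_rRNA_URS000090DF6D (chr1:91387193-91387720), a fragment of the large subunit RNA, was at 543, 693 and 676 CPM in GFP, 723, 648 and 701 with LMNA, 646, 747 and 715 with LMNB1, and 1070.5, 1155.5 and 1172.8 with LMNB2. Its LMNB2 libraries stood above all others, with a log2 fold change of 0.83 ± 0.23 (adjusted p 0.0615). A large subunit fragment of chromosome 17, LSU_rRNA_eukarya_rRNA_URS000096B15F (chr17:35151127-35151256), had 0.81 ± 0.24 (adjusted p 0.0757). SSU_rRNA_eukarya_rRNA_URS00009AAC46 (chr12:20551398-20551816), a small subunit fragment, was at 86.5, 87.0 and 84.7 CPM in GFP and 130, 136 and 145 in LMNB2 (0.67 ± 0.20, adjusted p 0.0826). These copies resemble the rDNA genes, and reads from the rDNA could be counted at them.

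The largest fold changes among members rested on 1 GFP library. SSU_rRNA_eukarya_rRNA_URS000094F5D5 on chromosome 14 had log2 fold changes of -1.40 ± 1.00 in LMNB1 and -1.99 ± 1.02 in LMNB2, with 0.524, 0.661 and 7.79 CPM in GFP and 0.742, 0.806 and 0.696 in LMNB2 (adjusted p 0.872 and 0.32). In LMNA the largest was RF00002, the 5.8S family, on chromosome 20 (-0.79 ± 0.67, adjusted p 0.933), where GFP was at 0.0773, 0.0441 and 0.327 CPM. In both cases GFP replicate 3 was the high GFP library. With 1 library left out, the chromosome 14 feature ranged from -1.89 to 0.98 in LMNB1 and -2.50 to 0.37 in LMNB2. RF00002 ranged from -1.55 to 0.53 in LMNA.

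The other-species names followed a different order. The most abundant, ENSBBBG00000016727.1 (chr6:4427938-4428106), overlaps the 5S pseudogene RNA5SP202 and was at 530, 341 and 711 CPM in GFP, 616, 555 and 655 with LMNA, 424, 344 and 375 with LMNB1, and 457, 367 and 313 with LMNB2. The groups overlapped (log2 fold change -0.48 ± 0.27 in LMNB2, adjusted p 0.347). The same name at chr3:181822847-181823015, over RNA5SP150, had 0.69 ± 0.32 in LMNA (adjusted p 0.895). Over the 24 tested, the LMNB2 median was -0.02.

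Among 26 features of RNAs that act in ribosomal RNA processing, 21 were tested and 7 rose in LMNB2, beside 1.91% of all features, all of them U3 genes or their overlapping intervals (SNORD3A, SNORD3B-1, SNORD3B-2, SNORD3C and SNORD3D). U3 guides the early cuts that free 18S. SNORD3A was at 51.1, 41.4 and 47.6 CPM in GFP, 65.4, 63.1 and 58.7 in LMNA, 50.7 ± 3.13 in LMNB1 (SD, n = 3), and 84.1, 87.2 and 84.4 in LMNB2. Its log2 fold change was 0.87 ± 0.20 (adjusted p 0.0344), and the 7 ranged from 0.77 to 0.87 (adjusted p 0.0333 to 0.0488). U3 copies are near-identical and share reads, so they are 1 measurement. No feature of the list passed in LMNA or LMNB1, and its medians were 0.28 in LMNA and 0.39 in LMNB2. The 7 calls fell to 0 without GFP replicate 2, without LMNA replicate 1 or 2, and without any 1 LMNB1 or LMNB2 library, and rose to 11 without GFP replicate 3.

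The remaining processing RNAs did not pass in LMNB2. SNORD118 (U8), needed for 5.8S and 28S maturation, was at 398, 437 and 355 CPM in GFP and 374, 377 and 365 in LMNB2, a log2 fold change of -0.09 ± 0.22. RMRP, the RNA of RNase MRP, had 0.15 ± 0.24, with GFP replicate 3 the highest of the 12 libraries. SNORD13 (U13), which acts in 18S maturation, had 0.07, SNORD22 (U22) 0.28 and SNORD14E (U14) 0.01, and SNORA73A (U17), SNORA62 (E2) and SNORA63 (E3) had 0.39, 0.11 and 0.23. Of the 12 tested features that are not U3, 10 had a log2 fold change above 0 in LMNB2 and none passed, over a range of -0.09 to 0.55. SNORD14A, another U14 copy, was the highest of them (adjusted p 0.305). Whether U3 and the other RNAs differ in their response was not tested.

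Ribosomal RNAs that Pol I does not make gave other values. Of 154 tested 5S features, 4 passed in LMNB2 and rose, beside 1.91% of all features. Those calls fell to 0 with total counts, with only the compared libraries, without LMNA replicate 1 or 2, and without any 1 LMNB1 or LMNB2 library. Without GFP replicate 1, 2 or 3 there were 8, 1 and 31 calls, the 1 being lower. The 5S median was 0.00, while the annotated gene RNA5S8 had a log2 fold change of -0.00. The 2 mitochondrial features did not pass, with a median of 0.05. They are MT-RNR2 and a bacterial-model interval nested inside it, and are read as 1 measurement of the large mitochondrial ribosomal RNA. No test compared these lists with the Pol I members.

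Intervals of microRNA hairpins in and near ribosomal RNA units were chosen after values were seen, 30 in all. Spacers or flanks of the chromosome 21 units held 22 of them, 28S genes 2, other places on chromosome 21 held 4 and chromosome 2 held 2. None passed in LMNB2, and 13 lay above GFP and 2 below, where 12.1% and 10.2% of all tested features did. Many of these intervals are copies of the same hairpin or overlap each other, so the 30 are not independent. In the spacers and flanks these counts were 9 and 2, and both intervals inside 28S lay above GFP. The hairpin interval of MIR3648-2 in the first unit was at 6.61, 5.65 and 3.69 CPM in GFP and 9.15, 10.2 and 9.19 in LMNB2 (0.84 ± 0.23, adjusted p 0.0556). The interval of mature miR-3648 alone was at 0.0773, 0.140 and 0.248 in GFP and 0.187, 0.173 and 0.128 in LMNB2. Most counts of the wider interval were thus not counted at the mature one. How reads that cross its edges were counted is not given. MIR6724-4, outside the transcribed unit, had -0.42 to -0.47 at its 4 copies. The 3p intervals of MIR10396B and MIR10396A stood at 4.01 and 3.32 CPM in GFP replicate 3, against at most 1.38 and 0.766 in the other 11 libraries.

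The features most like the summed members over the 12 small RNA libraries were 5 lncRNA intervals, FP671120.2 at 3 places and ENSG00000280441.3 at 2, with a Pearson's r of 0.998 in log2 CPM. All contain an rDNA unit and hold its reads. FP671120.2 at chr21:8197595-8227671 had 16712 bases outside the first unit, which held 72 to 131 counts per library and 0.00848% of the interval's small RNA counts, but 31.0% of its ATAC counts.

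In ATAC-seq, which reads how open the chromatin is to a transposase, the rDNA windows showed no call. Windows extend further beyond each feature than the small RNA intervals do. The 45S window of the first unit held 298, 310 and 262 CPM in GFP, 301, 316 and 299 with LMNA, 311, 309 and 290 with LMNB1, and 257, 286 and 255 with LMNB2. All groups overlapped GFP, and the log2 fold change in LMNB2 was -0.12 ± 0.05 (unadjusted p 0.0304, adjusted p 0.862). Over the 15 rDNA genes it ran from 0.06 to 0.11 in LMNA, 0.04 to 0.14 in LMNB1 and -0.16 to -0.05 in LMNB2. No rDNA window had its LMNB2 libraries wholly below GFP.

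No member window passed in LMNA, LMNB1 or LMNB2 or in the joint test, where 0.000611%, 0.00305%, 0.00244% and 0.0916% of all 163786 tested windows did. At an unadjusted p under 0.05 the counts were 10, 11 and 32 of 177 (background 5.19%, 4.78% and 5.72%), and 36 in the joint test (background 6.24%). DESeq2's Wald test called 0, 0 and 3 (background 0.0366%, 0.0379% and 0.0708%). Windows above GFP numbered 9 of 177 in LMNA, 7 in LMNB1 and 5 in LMNB2 (background 4.81%, 4.62% and 5.59%), and windows below GFP 5, 16 and 23 (background 4.74%, 3.84% and 4.72%). The joint test on the 9 lamin libraries alone called 13 of 173 member windows (background 0.503%), 10 of them rDNA genes (adjusted p 0.00155 to 0.0334), with LMNB2 lower than LMNA and LMNB1 in mean. In the fit of all libraries these comparisons stood at -0.12 in LMNB2 against 0.07 in LMNA and 0.06 in LMNB1 for the first 45S window.

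Per kb, the ATAC mean of the first unit was 37.9 CPM in 5.8S, 31.8 in 18S, 23.7 in 28S and 13.9 in the spacers. In the 500 bp flanks that start 350 bp outside the window, it was 31.1 upstream and 82.6 downstream of the first unit. RNA45SN3 and RNA45SN1 had 31.5 and 30.3 upstream but 16.1 and 16.0 downstream. The downstream flank of the first unit was the highest of these 6 in each of the 12 libraries, at 72.2 to 90.7.

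Of the ATAC counts, members together took 0.344%, 0.322% and 0.288% in the GFP libraries. Their share was 0.347%, 0.338% and 0.368% with LMNA, 0.364%, 0.365% and 0.339% with LMNB1, and 0.292%, 0.309% and 0.287% with LMNB2. All lamin groups overlapped GFP in this total. Its difference from GFP depended on the denominator: in LMNB1 it was 0.0376 percentage points, and -0.0409 when mitochondrial features left the denominator. In LMNB2 it was -0.0221 points, and 0.0174 when lncRNA features left it, -0.171 when mitochondrial features did, and 0.00071 with 1 copy per class.

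**Figure D4:**
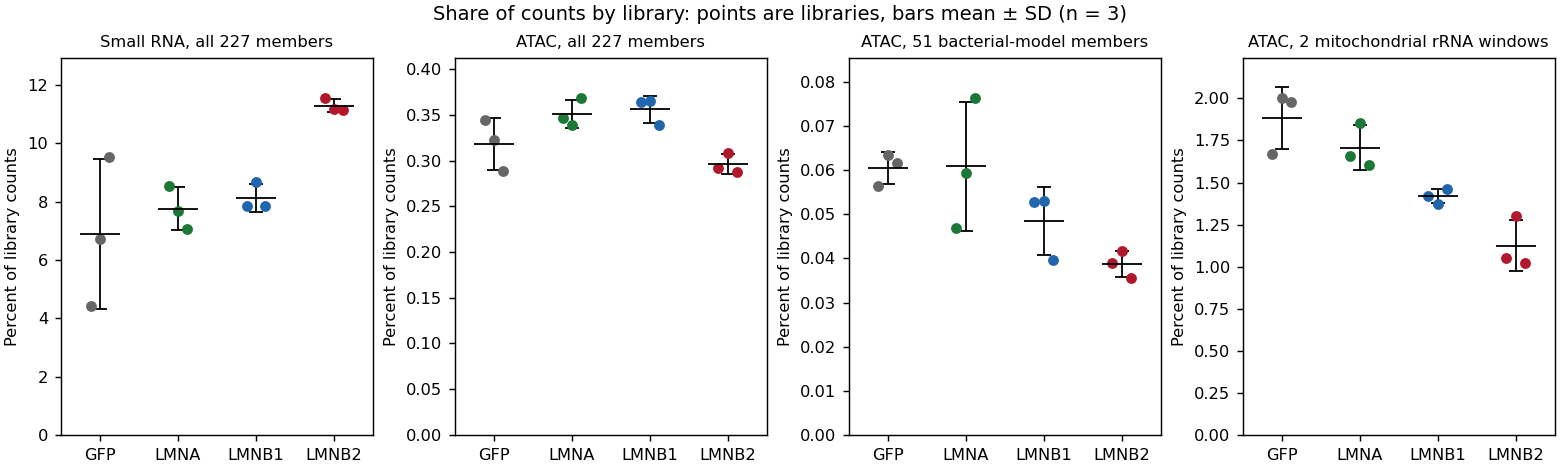
Percent of library counts (vertical axes, from 0) by group (horizontal axes) for all members in small RNA and ATAC, the bacterial-model members in ATAC and the mitochondrial ribosomal RNA windows in ATAC; points are libraries and bars mean ± SD. Members in small RNA take 11.1% to 11.5% in LMNB2 and 4.42% to 9.54% in GFP, and both right-hand panels are lowest in LMNB2.

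Most member windows wholly below GFP were bacterial-model windows, 15 of 16 in LMNB1 and 19 of 23 in LMNB2. In LMNB2 the rest were 3 dispersed copies and 1 other-species name. Of 46 bacterial-model windows tested, these 15 and 19 lay wholly below GFP, where 3.84% and 4.72% of all tested windows did. Their medians were -0.42 and -0.48. The most abundant, SSU_rRNA_bacteria_rRNA_URS000095C3C7 (feature at chr11:10509227-10510239), was at 227, 289 and 271 CPM in GFP, 183, 257 and 292 with LMNA, 201, 199 and 147 with LMNB1, and 152, 170 and 141 with LMNB2. The log2 fold change in LMNB2 was -0.77 ± 0.20 (adjusted p 0.849). SSU_rRNA_bacteria_rRNA_URS0000941729 on chromosome 5 had -0.77 ± 0.18 (adjusted p 0.822). The fit of GFP and LMNB2 libraries alone called 11 member windows, all lower and all bacterial-model (background 0.0426%).

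Mitochondrial ribosomal RNAs are related to bacterial ones. The 2 mitochondrial windows are nested and not independent. Both had lower values in LMNB1 and LMNB2 than in GFP, and neither passed the test (adjusted p 0.978 in LMNB1 and 0.748 in LMNB2). MT-RNR2, the large mitochondrial ribosomal RNA, was at 8708, 12000 and 11427 CPM in GFP and 5442, 6949 and 5317 in LMNB2. The 2 mitochondrial windows had medians of -0.61 in LMNB1 and -0.86 in LMNB2, in the order of the mitochondrial shares given above. In small RNA the bacterial-model members were not lower in LMNB2: their median was 0.26 and 25 of 28 were above 0. The part of mitochondrial reads in the ATAC values was not tested.

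The largest ATAC fold changes lay at windows with almost no counts. ENSPTRG00000027018.2 had -1.21 ± 0.47 in LMNA and -1.32 ± 0.46 in LMNB1, at 0.0758, 0.0411 and 0.196 CPM in GFP and 0.0315 to 0.0469 in both lamins. LSU_rRNA_bacteria_rRNA_URS0000988938 had 1.57 ± 0.57 in LMNB2 at no more than 0.120 CPM in any library (adjusted p 0.86). Dispersed copies had medians within 0.03 of 0 in all 3 lamins, and the other-species windows -0.03, -0.12 and -0.02.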

How the data were processed

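Small RNA and ATAC-seq were measured in 12 libraries each. The authors deposited raw counts per annotated feature in a table per assay, as whole numbers with unequal library totals. The build was GRCh38, per the submitters' processing notes. The aligner, the counting tool, strand, multi-mapping and duplicate handling, and any shift of ATAC reads are not given in the sources used here, and each can change counts at repeated genes. Groups came from sample titles. The labels give a single batch number per assay, so no batch term could be fitted. Any batch within an assay that the labels do not give could not be examined. Table starts were counted from 0 and are printed counted from 1.

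All 12 libraries of an assay were fitted in edgeR 4.0.16 (R 4.3.3), with filterByExpr, TMM scaling, robust quasi-likelihood dispersions, a mean per group and a prior count of 2 for log2 fold changes. The filter kept 33893 features in small RNA and 163786 windows in ATAC. Calls are features at a Benjamini-Hochberg adjusted p under 0.05 over all of them. A joint test compared the 3 lamins. Shares of counts were compared by exact permutation (scipy 1.17.1). The fits were also run on data simulated with independent features and a fixed spread. That simulation held no copies that share reads and no outlying library, so it does not test calls under such conditions.

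Members and lists were chosen with earlier results of these data known. The text names the 2 members of each class with the highest mean CPM, every called member, and the largest absolute log2 fold change per assay and lamin. Of the processing list it names called features and the most abundant of each RNA, of the comparison lists the most abundant feature, and the 5 features most like the summed members. Others are named as chosen after their values were seen. Alternatives were scaling, filter, test (DESeq2 1.42.0), threshold, libraries fitted, a replicate block, features tested, denominators and leaving out each library.

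Same-numbered libraries of different groups had correlated deviations from their group means of -0.04 to 0.232 in small RNA (median 0.024) and -0.078 to 0.199 in ATAC (median 0.007). For differently numbered libraries these ran from -0.203 to 0.069 (median -0.016) and from -0.159 to 0.092 (median -0.001). The highest correlations were thus between same-numbered libraries. The labels do not say that numbers pair samples. The main fits did not pair them, and results with a replicate block are given below.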

Additional observations from a re-analysis of the deposited data

How the results depend on the processing

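The small RNA order of the first rDNA unit was kept in LMNB2 under all 21 settings run: its log2 fold changes ranged from 0.44 to 0.70 (45S), 0.55 to 0.80 (18S), 0.41 to 0.69 (28S) and 0.29 to 0.65 (5.8S), and only DESeq2's Wald test called the first 3 of these. Counts of calls moved with the settings, and the cause was not tested. Small RNA members called in LMNB2, each with the share of all features called under the same setting, were 0 at an adjusted p under 0.01 (0.209%), 7 with no count filter (1.16%), 2 with a mean of at least 10 counts (3.08%), 23 with DESeq2 (3.52%), 0 with only the compared libraries (0.0742%) and 7 without lncRNA features (3.83%), and 0 to 35 when 1 library was left out (5.82% for the 35). LMNA had 0 to 5 when 1 library was left out (0.842% for the 5), and LMNB1 had 1 with no count filter (0.0843%). The joint test called 9 with no count filter (1.11%), 56 with only the lamin libraries (12%), 10 without lncRNA features (2.38%) and 0 to 16 with 1 library left out (6.16% for the 16). Processing RNAs in LMNB2 numbered 0 at an adjusted p under 0.01, with total counts only and with only the compared libraries, and 0 to 11 with 1 library left out; in LMNA they were 1 with DESeq2 and 0 to 2 with 1 left out. For 5S the LMNB2 counts were 0 at an adjusted p under 0.01, with total counts and with only the compared libraries, 19 with no count filter, 15 with DESeq2, 18 without lncRNA features and 0 to 31 with 1 left out; LMNB1 had 4 with no count filter and LMNA 0 to 14 with 1 left out.

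ATAC member windows called in LMNB2 were 3 with total counts only (0.0604%), 3 with DESeq2 (0.0708%) and 11 with only the compared libraries (0.0426%). The joint ATAC test called 2 with total counts (0.058%), 13 with only the lamin libraries (0.503%) and 0 to 14 with 1 library left out: 14 without GFP replicate 3 (0.351%), of which 11 were rDNA genes, and 8 without LMNB1 replicate 3 (0.672%). Both nested mitochondrial ribosomal RNA windows (2) passed against GFP in both lamin B groups, with total counts and with DESeq2.

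With the replicate block, small RNA calls in LMNB2 were 0 members, 4 processing RNAs and 2 5S features (2.15% of all features), and the joint ATAC test called 15 members (0.338%), 11 of them rDNA genes. The small RNA share difference from GFP turned to -0.374 percentage points in LMNA and -0.00376 in LMNB1 without GFP replicate 1; with 1 library left out it ranged from -0.374 to 2.19 and -0.00376 to 2.56. The ATAC share difference turned to -0.0409 points in LMNB1 when mitochondrial features left the denominator, and in LMNB2 to 0.0174 when lncRNA features left it and to 0.00071 with 1 copy per class. Copies and overlapping features share reads, 3 libraries per group limit each exact test to p = 0.1, and members with almost no counts carry wide errors at this depth.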

Other observations

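Next after the lncRNA intervals that contain the rDNA units, the feature most like the summed members was RNVU1-19, a variant of the U1 spliceosomal RNA on chromosome 1, with a Pearson's r of 0.985 over the 12 libraries, given as a description. It was picked after its values were seen. Its level was 50.7 ± 5.42 CPM in LMNB2 against 26.7 ± 2.59 in GFP (SD, n = 3). LMNA stood at 31.5 ± 1.51 CPM and LMNB1 at 29.0 ± 2.41. Whether reads are shared between U1 copies was not tested.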
